A study of Mus musculus with 36 samples.

Results

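The neurotrophins and GDNF are growth factors that keep neurons alive, and 8 genes of this system were followed through the mouse retina and optic nerve: the ligand genes Bdnf, Ntf3 and Gdnf, and the receptor genes Ntrk2, Ntrk3, Ngfr, Sort1 and Gfra1. They were taken by gene symbol and are 8 of 55487 genes in the deposited count table. Bulk RNA-seq was done on 36 libraries from C57BL/6 mice, which were young adults, with 12 libraries each of UON (the unmyelinated optic nerve at the nerve head), MON (the myelinated optic nerve behind it) and whole retina. The groups were bilaterally naïve mice, mice at 3 D or 2 W after crush of the optic nerve, and mice at 3 D, 2 W or 6 W after microbeads were injected into the anterior chamber of 1 eye, a model of glaucoma that raises eye pressure. Each group of each tissue was 1 female and 1 male library, each made from equal amounts of RNA of 2 mice, and the same mice gave all 3 tissues. So n = 2 pools per group, sex cannot be told apart from the pair of mice in a pool, and every p measures the spread between such pools. No transgene or altered allele was involved, and the naïve libraries were the controls of both injury models.

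Depth was 16.2 to 58.5 M estimated counts in UON, 16.3 to 78.1 M in MON and 19.9 to 56.0 M in retina, and about 4 of these counts come from 1 pair of reads. The tissue labels held against marker genes: 6 photoreceptor genes summed to between 49800 and 61700 CPM, the counts scaled to library size, in retina and to 9.31 to 333 in the nerve libraries. In naïve mice 6 oligodendrocyte genes summed to between 122000 and 164000 CPM in MON and to between 21900 and 28700 in UON. Levels of different genes are compared below as FPKM, which correct for transcript length. Levels of 1 gene are compared between libraries as CPM with TMM normalization over the 36 libraries. Differences were tested by edgeR's quasi-likelihood test with Benjamini-Hochberg adjustment over all genes tested, given as "edgeR adjusted p". A difference counts as called where this p is under 0.05 and the log2 fold change lies outside -1 to 1. In these bulk samples, fewer cells of a type and less RNA per cell cannot be told apart, which applies to each tissue and injury difference below.

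As background, BDNF signals through TrkB, the receptor kinase encoded by Ntrk2, and NT-3, the product of Ntf3, mainly through TrkC, encoded by Ntrk3. Both Trk genes also encode truncated receptors that bind the ligand but have no kinase, and the truncated TrkB form is abundant in astrocytes. The p75 receptor (Ngfr) binds all neurotrophins and, together with sortilin (Sort1), their uncleaved precursors. GDNF belongs to another family and binds GFRα1 (Gfra1), which signals with the receptor kinase Ret. Retinal ganglion cells (RGCs) receive BDNF from their targets in the brain along the optic nerve as well as from within the retina.

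The kinase and truncated receptors differ in sequence that only 1 form carries, and the coding stretches where the main forms part are shown. The form shares given below were not measured on these stretches. They are sums of count estimates for whole transcripts, over all transcripts taken for each form. The stretches were read from the GENCODE M21 transcripts on GRCm38. Lower case marks the last 45 coding bases that both forms share, and capitals mark the bases that follow in that form. For Ntrk2, on the plus strand, the capitals are the first 90 of 1073 bases particular to the kinase form (chr13:58985802-58985891) and all 38 bases of the truncated form up to and with its stop codon (chr13:58932023-58932060).
Ntrk2-201: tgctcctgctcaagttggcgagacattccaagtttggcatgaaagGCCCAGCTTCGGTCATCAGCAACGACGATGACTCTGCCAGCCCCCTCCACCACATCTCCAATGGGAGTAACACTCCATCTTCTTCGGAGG
Ntrk2-202: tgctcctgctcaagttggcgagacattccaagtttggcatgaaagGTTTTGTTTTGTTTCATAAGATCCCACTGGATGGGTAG
For Ntrk3, on the minus strand, the capitals are the first 90 of 893 bases particular to the kinase form (chr7:78260325-78260414) and all 254 of the truncated form, stop codon included (chr7:78304292-78304426 joined to chr7:78302629-78302747).
Ntrk3-201: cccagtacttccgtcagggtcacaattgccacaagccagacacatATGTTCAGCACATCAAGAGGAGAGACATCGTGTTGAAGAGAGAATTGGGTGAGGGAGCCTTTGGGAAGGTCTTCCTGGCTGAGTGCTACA
Ntrk3-202: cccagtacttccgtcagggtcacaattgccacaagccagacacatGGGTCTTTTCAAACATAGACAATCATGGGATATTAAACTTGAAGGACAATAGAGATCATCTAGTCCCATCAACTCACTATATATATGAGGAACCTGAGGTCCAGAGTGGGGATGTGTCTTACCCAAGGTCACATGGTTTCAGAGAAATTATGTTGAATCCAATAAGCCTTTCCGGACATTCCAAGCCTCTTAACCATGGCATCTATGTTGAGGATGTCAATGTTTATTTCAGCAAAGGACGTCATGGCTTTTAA
The kinase forms have open reading frames of 2466 bases for Ntrk2 and 2478 bases for Ntrk3, and the truncated forms of 1431 and 1839 bases.

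In naïve nerve, Ntrk2 had the highest level of the 8 genes. Its deposited FPKM were 153 (female pool) and 147 (male pool) in UON, 131 and 83.9 in MON, and 9.97 and 9.61 in retina. Sort1 had 10.8 and 12.4 FPKM in UON, 27.0 and 35.2 in MON, and 12.1 and 12.9 in retina. Ntrk2 was the highest member in each nerve pool, whereas in retina Sort1 was above Ntrk2 in both pools. Gfra1 had 14.4 and 12.8 FPKM in UON, 9.83 and 7.29 in MON, and 5.18 and 3.98 in retina. Ntrk3 had 8.05 and 9.21 FPKM in UON, 3.81 and 4.07 in MON, and 4.65 and 3.17 in retina. Ngfr had 5.89 and 9.04 FPKM in UON, 0.278 and 0.359 in MON, and 2.2 and 1.81 in retina. The ranges of Ntrk3 and Ngfr met in UON and those of Gfra1 and Ntrk3 in retina, so these neighbours in the order did not differ beyond their spread. In MON the 5 receptor genes kept a clear order, Ntrk2, Sort1, Gfra1, Ntrk3 and Ngfr, in both pools. The ligand genes were low in the nerve. Bdnf had 5.40 and 5.69 FPKM in retina but 0.159 and 0 in UON and 0.0106 and 0 in MON. Ntf3 and Gdnf stayed under 0.5 FPKM in all 6 naïve libraries.

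**Figure D1:**
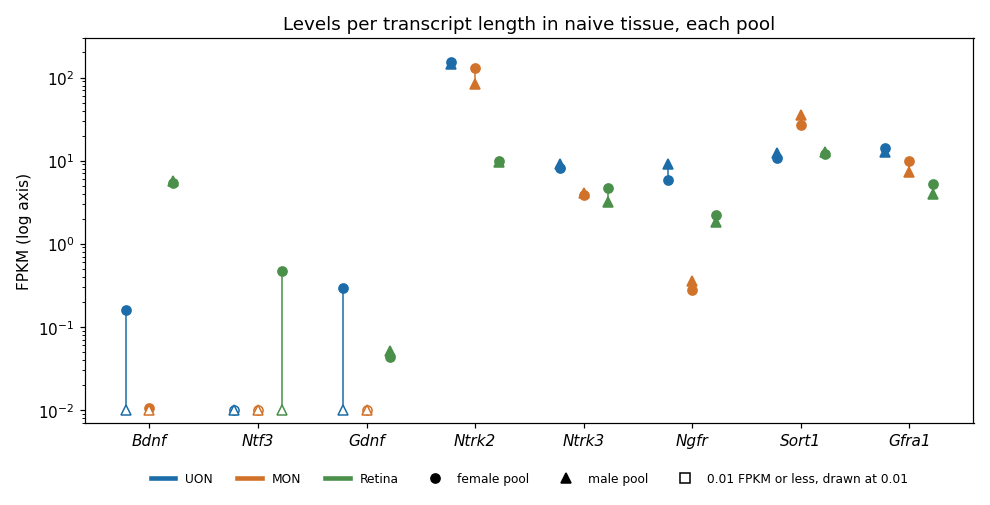
Deposited FPKM of the 8 genes in the naïve libraries, on a log axis; circles are female and triangles male pools, joined by a line, and open symbols are values of 0.01 or less, drawn at 0.01. Ntrk2 is highest in both nerve regions, at 83.9 to 153 FPKM, while Bdnf is above 5 FPKM in retina and at most 0.159 FPKM in the nerve.

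Among the ligands, Bdnf (GRCm38 chr2:109674700-109727007, plus strand) was a retinal transcript in these data. The naïve retina had 21.1 and 21.7 CPM, against 0.806 and 0 CPM in UON and 0.0637 and 0 CPM in MON. Over all conditions, retina had a lowest value of 11.8, a median of 19.6 and a highest of 25.4 CPM, whereas UON ran from 0 to 1.25 CPM and MON from 0 to 1.32 CPM. Retina exceeded both nerve regions in 12 of 12 pools, and the ranges did not overlap. From naïve retina to naïve UON the log2 fold change was -6.55 (standard error 1.27, edgeR adjusted p = 0.00655), and naïve MON was also called lower than retina (edgeR adjusted p = 0.00333). Since naïve MON held 1 pair of reads and naïve UON 9, against 518 in retina, the size of the difference is better given as a ratio of pooled counts. Retina over UON was 51.4-fold with a 95% exact binomial interval of 26.9 to 113, and retina over MON was 425-fold with an interval of 76.0 to 16800. All naïve UON counts were in the female pool, and retina was 26.5-fold above UON without the male one. These intervals cover counting error only.

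The retinal Bdnf counts came mainly from 3 annotated transcripts. Bdnf-205 took 43.1% of them, Bdnf-209 took 28.1% and Bdnf-210 took 15.1%, and each was present in 12 of 12 retinal libraries. Bdnf-209 had 8 to 551 counts per retinal library, with a median of 231, and Bdnf-210 had 46 to 208, with a median of 147. Both were at 0 counts in all 24 nerve libraries. Transcripts of Bdnf share their coding exon, so the split among them is an estimate of the assembly program and rests on the reads of short first exons. The 250 bases before the start of Bdnf-209 (GRCm38 chr2:109692186-109692435, plus strand, RefSeq promoter window) are shown as the start region that was in use in retina and at 0 in nerve. Capitals mark the only match to TCACGTCA, a sequence close to the cyclic AMP response element, searched on both strands (TGACGTGA on the other).
Bdnf-209: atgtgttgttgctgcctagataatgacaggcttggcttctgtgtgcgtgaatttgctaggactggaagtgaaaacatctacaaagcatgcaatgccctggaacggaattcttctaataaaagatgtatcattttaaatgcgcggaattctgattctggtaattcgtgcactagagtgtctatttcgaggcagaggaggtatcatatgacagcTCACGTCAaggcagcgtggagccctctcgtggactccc
The match lies 38 bases before the start. It is found in 115 of 32851 promoter windows (0.35%) and in 1 of 7 Bdnf windows. The full element TGACGTCA was in 1.55% of windows and the E-box CACGTG in 6.02%, and neither was in this window. A match is a description of these letters only.

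Ntf3 (chr6:126101412-126166910, minus strand) was close to the limit of detection. It had 0 counts in 8 of 12 UON and 10 of 12 MON libraries and at most 49 counts in retina. In retina its values were 0.621 and 0 CPM in naïve mice, and the highest over all conditions was 1.13 CPM. Summed over 12 libraries, retina had 55 pairs of reads, UON had 6 and MON had 4. Retina was thus 7.27-fold above UON (95% exact binomial interval 3.39 to 22.4) and 11.7-fold above MON (4.31 to 44.4), or 42.5-fold without the female MON pool at 6 W of glaucoma, which held 12 of the 16 MON counts. The test over all conditions called it lower in UON (log2 fold change -4.15, standard error 1.02, edgeR adjusted p = 0.00209) and in MON (edgeR adjusted p = 0.001). Its folds of 17.7 for UON and 30.8 for MON exceeded the pooled ratios. Some nerve groups, naïve UON and MON among them, were at 0 counts in both pools, so the size of these folds is uncertain.

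Gdnf (chr15:7810846-7837575, plus strand) was low and variable. Over all conditions UON ran from 0 to 7.22 CPM with a median of 0.583, MON from 0 to 5.0 with a median of 0.4, and retina from 0 to 0.89 with a median of 0.147. In naïve mice UON had 1.34 and 0.0239 CPM, MON had 0 and 0, and retina had 0.155 and 0.199. The ranges of the 3 tissues overlapped. Pooled over 12 libraries, UON was 7.64-fold above retina (95% exact binomial interval 4.94 to 12.5) and MON 5.78-fold (3.70 to 9.57), from 152 pairs of reads in UON, 114 in MON and 23 in retina. These intervals cover counting error only. Single libraries carried much of this. UON fell to 3.35-fold above retina without the male pool at 2 W after crush (372 counts), and MON to 3.01-fold without the male pool at 3 D after crush (244 counts), while leaving out the female retinal pool at 3 D after crush gave 11.5-fold and 8.73-fold. The test over all conditions called UON above retina (log2 fold change 2.90, standard error 0.874, edgeR adjusted p = 0.0067) but not MON (log2 fold change 1.68, edgeR adjusted p = 1). The standard error of the MON difference had no usable size. Naïve MON was at 0 counts in both pools, and so was retina at 2 W of glaucoma, which enters both comparisons. The size of both folds is thus uncertain. The highest UON value was 1 library, the male pool at 2 W after crush with 7.22 CPM, and its female partner had 0.107 CPM.

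**Figure D2:**
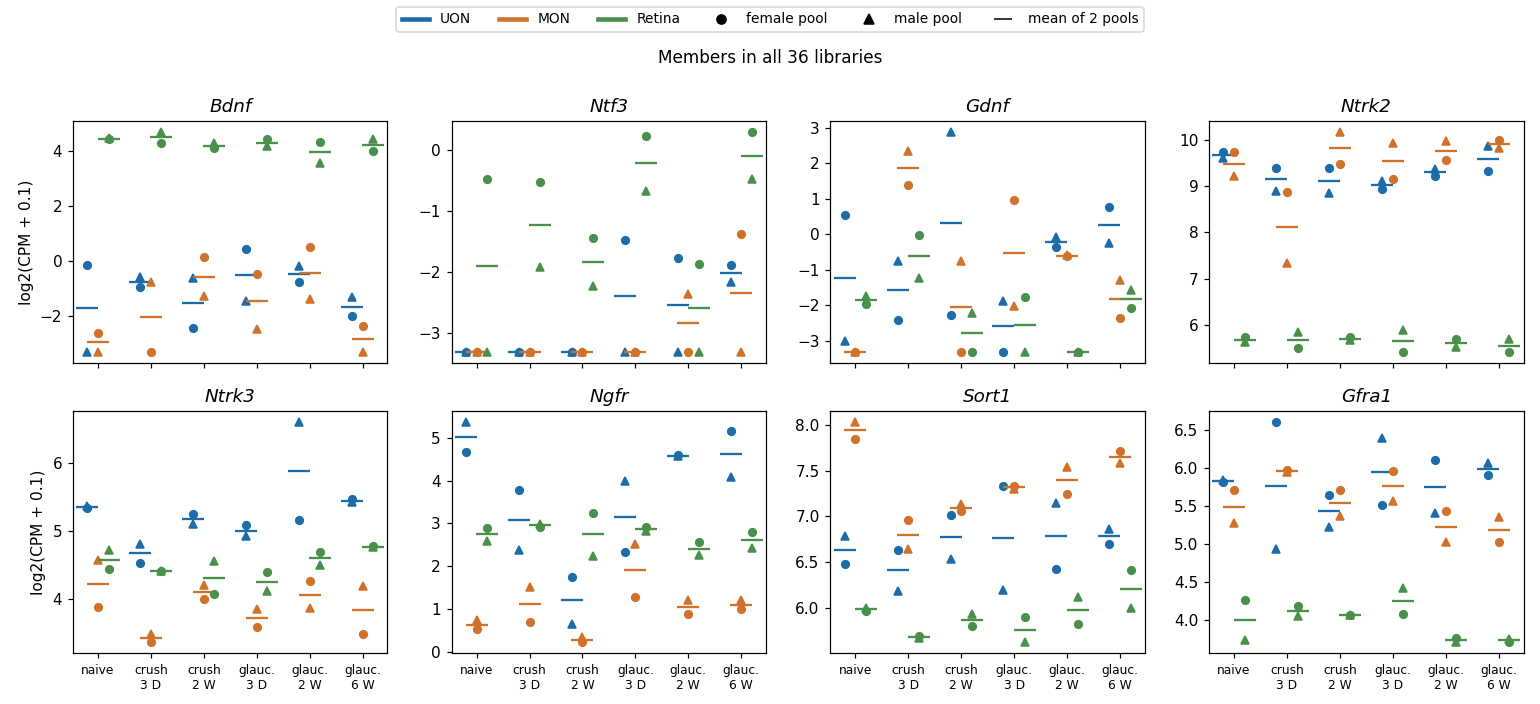
Log2 of CPM plus 0.1 for the 8 genes in all 36 libraries, by tissue (colour) and condition; circles are female and triangles male pools, bars are the means of 2 pools on that log scale, and each panel has its own axis. Bdnf lies between 11.8 and 25.4 CPM in every retinal library, and Ntrk2 between 163 and 1151 CPM in every nerve library.

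Of the 3 comparisons between naïve tissues, UON against MON called 9.63% of all genes tested, UON against retina 31.7% and MON against retina 27.6%. Of the 7 members tested, the first of these called 3, the comparison of UON with retina 4, and that of MON with retina 5. Ntf3 did not pass the filter on low counts in these 6 libraries. When the mean over all 6 conditions was compared in all 36 libraries, the shares of all genes called were 13.5% for UON against MON, 45.3% for UON against retina and 42.4% for MON against retina. Of the 8 members, these comparisons called 2, 5 and 6, in the same order. The median log2 fold change of all genes from retina to UON was -0.169 in naïve mice and -0.193 over all conditions, and from retina to MON over all conditions -0.122, and the members' values are not corrected for that shift.

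Ntrk2 (chr13:58806569-59133970, plus strand), the TrkB gene, was at a similar level in both nerve regions and far lower in retina. Naïve UON had 851 and 781 CPM, naïve MON 857 and 599.6, and naïve retina 53.4 and 49.6. Every nerve library exceeded every retinal library over all conditions, where UON had a median of 650.0 CPM, MON 807 and retina 51.2. Relative to naïve retina, the log2 fold change was 3.95 for UON (standard error 0.255, edgeR adjusted p = 4.86e-05) and 3.80 for MON (standard error 0.254, edgeR adjusted p = 6.54e-05), which are 15.4-fold and 14-fold. Between naïve UON and MON the log2 fold change was 0.14 (edgeR adjusted p = 0.767). The sum of 6 astrocyte markers, which include Gfap, was also higher in nerve than in retina. It was 22500 to 26200 CPM in naïve UON, 12000 to 17400 in naïve MON and 1330 to 1430 in naïve retina. Unlike Ntrk2, this sum was higher in UON than in MON without overlap. The part of these markers in the Ntrk2 difference was not tested.

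The form of TrkB differed between tissues as well. Of the Ntrk2 counts of both forms, the kinase form took 4.9% to 11.1% in UON (median 6.3%, n = 12), 6.1% to 16.1% in MON (median 9.6%) and 40.4% to 68.0% in retina (median 53.5%). No nerve library reached the lowest retinal one. Within the same mice, the kinase share was lower in UON than in retina by a mean of 46.1 percentage points (SD 9.1, lower in 12 of 12 pools) and in MON by 43.7 points (SD 9.6, 12 of 12). Both gave an adjusted p of 0.000732 in an exact sign-flip permutation test over pools, two-sided, adjusted over 6 comparisons, where the smallest unadjusted p possible is 0.000488. UON was also below MON, by 2.3 points (SD 3.5, 10 of 12 pools, adjusted p = 0.0439 in the same exact test), a call that was lost with counts taken per transcript length (exact test, adjusted p = 0.058) and with each of 9 of the 12 pools left out. In CPM, the kinase form had medians of 44.8 in UON, 65.2 in MON and 24.2 in retina, while the truncated form had 602 in UON, 725 in MON and 20.5 in retina. The larger gap between nerve and retina was thus in the truncated form. The widest 95% Wilson interval of a library's share reached 6.0 points to either side in retina and 1.6 in the nerve, for counting error only. It takes every pair of reads as telling the form. Reads in exons that both forms share are split by the assembly program, so these intervals are too narrow.

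Ntrk3 (chr7:78175959-78738012, minus strand), the TrkC gene, was highest in UON. Naïve UON had 40.3 and 41.1 CPM, naïve MON 14.8 and 23.7, and naïve retina 21.7 and 26.2. By CPM, UON exceeded MON and retina in 12 of 12 pools, and MON was below retina in 12 of 12, although the ranges over all conditions overlapped. Per transcript length the order of MON and retina turned in the naïve male pool, with 4.07 FPKM in MON and 3.17 in retina. The naïve female pool kept it (3.81 and 4.65 FPKM). The log2 fold change of naïve UON over MON was 1.08 (standard error 0.267, edgeR adjusted p = 0.0478), and over all conditions 1.37 (standard error 0.131, edgeR adjusted p = 2.48e-08). The naïve call was lost without the sex term (edgeR adjusted p = 0.0652), without the female UON pool (0.251), without the male UON pool (0.0631) and without the female MON pool (0.105). Against retina the naïve log2 fold change was 0.74 for UON (edgeR adjusted p = 0.067) and -0.34 for MON (edgeR adjusted p = 0.389), and neither was called.

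The kinase share of Ntrk3 was also higher in retina than in the nerve. It was 10.5% to 45.6% in UON (median 32.0%), 13.2% to 50.3% in MON (median 35.2%) and 68.9% to 100% in retina (median 79.4%). Within pools, UON was lower than retina by 49.7 points (SD 10.8, 12 of 12 pools) and MON by 44.8 points (SD 13, 12 of 12), both at an adjusted p of 0.000732 in the exact sign-flip permutation test. Per transcript length the medians were lower, at 55.8% in retina, 21.3% in UON and 17.5% in MON. The retinal minimum of 38.1% was then under the highest values of UON (41.8%) and MON (49.0%). The differences from retina were then -36.5 and -33.6 points (adjusted p = 0.00146 for both in the same exact test). UON and MON differed by 4.9 points with an SD of 16.8, and 6 pools went each way (exact test, adjusted p = 0.344). The truncated form had median levels of 23.4 CPM in UON, 9.07 in MON and 4.91 in retina. The corresponding medians of the kinase form were 10.4, 5.64 and 17.9 CPM. So, by these medians, the kinase form was higher in retina than in either nerve region, and the truncated form was highest in UON. These medians are not corrected for transcript length, and the kinase order of UON and retina may not hold per length. Ntrk3-201, of 19703 bases, had 8592 counts in retina and 3855 in UON over all libraries. The shorter kinase transcript Ntrk3-205, of 2678 bases, went the other way, with 719 in retina and 1617 in UON. The split rests on fewer reads than for Ntrk2, with intervals of up to 13.5 points to either side in MON, which are too narrow for the same reason.

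**Figure D3:**
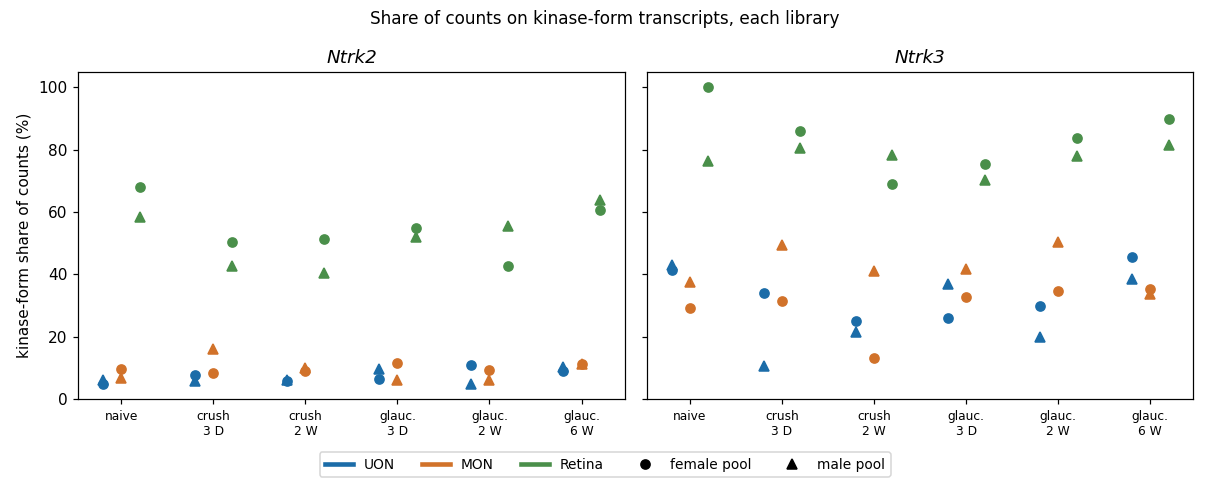
Kinase form as a percent of the counts of both forms of Ntrk2 and Ntrk3, in each of the 36 libraries, by condition and tissue (colour), with circles for female and triangles for male pools. For both genes all retinal libraries (40.4% or more for Ntrk2, 68.9% or more for Ntrk3) lie above all nerve libraries (at most 16.1% and 50.3%) on these counts; per transcript length the Ntrk3 ranges overlap.

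Within retina, the Ntrk2 kinase share was 68.0% and 58.5% in naïve mice, 50.4% and 42.7% at 3 D after crush, and 51.5% and 40.4% at 2 W after crush. In the glaucoma model it was 54.9% and 52.1% at 3 D, 42.8% and 55.4% at 2 W, and 60.6% and 64.0% at 6 W. Both pools of each crush time and of glaucoma at 3 D and 2 W were below both naïve pools. Those at 6 W of glaucoma lay between the naïve pools, but below both of them per transcript length (54.2% and 55.6% against 65.5% and 56.7%). With 2 pools per condition no test was made. The summed CPM of 8 RGC markers in these retinas was 945 to 1040 in naïve mice, 538 to 584 at 3 D and 116 to 133 at 2 W after crush. In glaucoma this sum was 464 to 836 at 3 D, 777 to 787 at 2 W and 727 to 783 at 6 W. The part of these markers in the shares was not tested. Retinal Ntrk2 itself kept to 42.6 to 59.6 CPM in all 12 libraries, and Ntrk3 to 16.7 to 27.4.

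Ngfr (chr11:95568818-95587735, minus strand), the p75 receptor gene, had the largest difference between the nerve regions among the members called. Naïve UON had 25.4 and 41.1 CPM, naïve MON 1.35 and 1.56, and naïve retina 7.38 and 5.90. The naïve regions did not overlap, and MON was lowest. Naïve UON was 21.9-fold above MON, or 4.45 on the log2 scale (standard error 0.402, edgeR adjusted p = 0.00171). UON was also called above retina (2.25, standard error 0.360, edgeR adjusted p = 0.00271) and MON below it (-2.21, standard error 0.373, edgeR adjusted p = 0.00389). Over all conditions UON exceeded MON in 12 of 12 pools and MON was below retina in 12 of 12. UON exceeded retina in only 8 of 12, and that difference was not called over all conditions (log2 fold change 0.98). Fibroblast markers of meninges and sclera such as Col1a1 also differed, with sums over 6 genes of 2540 to 2840 CPM in naïve UON and 390 to 561 in naïve MON. The part of fibroblasts in the Ngfr difference was not tested.

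Sort1 (chr3:108284082-108361511, plus strand), the sortilin gene, went the other way. Naïve MON had 230.3 and 261 CPM, naïve UON 88.9 and 110, and naïve retina 62.4 and 64.0. The log2 fold change of naïve UON over MON was -1.35 (standard error 0.201, edgeR adjusted p = 0.00804), and that of MON over retina was 1.96 (standard error 0.205, edgeR adjusted p = 0.00042). MON exceeded UON in 11 of 12 pools over all conditions. Naïve UON lay 0.61 above retina on this scale (edgeR adjusted p = 0.0512), which was not called, and the direction turned per transcript length, with 10.8 and 12.4 FPKM in naïve UON against 12.1 and 12.9 in retina. So the partners of the precursor receptor had opposite orders in the nerve, p75 higher in UON and sortilin higher in MON. Sort1-202, a transcript annotated with a retained intron, took 69.8% of the Sort1 counts in retina, 33.7% in UON and 27.9% in MON, so that less of the retinal level was annotated as coding. Oligodendrocyte markers were also higher in naïve MON, as given above, and their part was not tested.

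Gfra1 (chr19:58235604-58455909, minus strand), the GDNF receptor gene, was a nerve transcript with little difference between regions. Naïve UON had 56.1 and 57.3 CPM, naïve MON 52.1 and 38.5, and naïve retina 19.2 and 13.2. Every nerve library of the 24 exceeded every retinal library. The log2 fold change from naïve retina was 1.80 for UON (standard error 0.236, edgeR adjusted p = 0.00106) and 1.49 for MON (standard error 0.234, edgeR adjusted p = 0.00277), while UON and MON were 0.31 apart (edgeR adjusted p = 0.478). Its signalling partner Ret, which is no member, had the opposite order, with 23.0 and 17.1 CPM in naïve retina, 1.34 and 0.525 in UON, and 1.32 and 2.22 in MON. Ret was called lower than in retina in UON (log2 fold change -4.49, edgeR adjusted p = 0.0014) and in MON (-3.47, edgeR adjusted p = 0.00439). Gfra1-203 took 28.5% of the Gfra1 counts in UON and 24.7% in MON but 2.7% in retina.

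After crush, Gdnf in MON at 3 D was the only called change among 44 tests of members against naïve mice, of which 6 had an unadjusted p under 0.05 and DESeq2 called 3. Its values were 2.51 and 5.0 CPM at 3 D (43 and 244 counts), against 0 counts in both naïve MON pools. The 0 was set to a floor of 12 counts over both naïve libraries, or 3 pairs of reads. Gdnf was 28.8-fold above this floor when pooled, and 16.6-fold and 33.1-fold in the female and male library. These folds leave out counting error in the injured libraries. The edgeR adjusted p was 0.0432, in a comparison that called 4.26% of all genes. The call was lost with DESeq2 (adjusted p = 0.0689), in a fit of all 36 libraries (edgeR adjusted p = 0.0596), and without the male pool at 3 D (edgeR adjusted p = 0.0595) or either naïve MON pool (0.171 without the female and 0.155 without the male pool). At 2 W the MON values were 0 and 0.49 CPM, where 2.72% of all genes were called. Pooled, Gdnf was then 2.18-fold above the floor, from 16 counts (edgeR adjusted p = 0.269). In UON, Gdnf was 0.0889 and 0.493 CPM at 3 D and 0.107 and 7.22 at 2 W against 1.34 and 0.0239 in naïve mice, so the groups overlapped.

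Ngfr in UON was lower at both times after crush without being called. It had 13.7 and 5.08 CPM at 3 D and 3.25 and 1.47 CPM at 2 W, against 25.4 and 41.1 in naïve UON. Neither crush group overlapped naïve UON, and the 2 W values were lower than those at 3 D in both sexes. The log2 fold change was -2.03 at 3 D (standard error 0.617, edgeR adjusted p = 1) and -4.02 at 2 W (standard error 0.661, edgeR adjusted p = 0.212, unadjusted p = 0.000513). Few genes were called in UON by this test: 0% at 3 D, with 657 genes at an unadjusted p under 0.05, and 0.0281% at 2 W. The 2 W value depended on the fit, with an adjusted p of 2.05e-08 by DESeq2, 0.00223 in edgeR's fit of all 36 libraries and 0.0382 in edgeR without the filter on low counts. The fibroblast marker sum in UON was 2170 to 5140 CPM at 2 W after crush against 2540 to 2840 in naïve mice, and the astrocyte sum 19500 to 20800 against 22500 to 26200. RGC markers summed to 30.7 to 52.9 CPM against 154 to 206 in naïve UON, and markers of oligodendrocyte precursors to 106 to 219 against 334 to 360, both without overlap. The part of these lists in the Ngfr values was not tested. MON, which had little Ngfr to begin with, had 1.52 and 2.77 CPM at 3 D and 1.07 and 1.16 at 2 W.

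**Figure D4:**
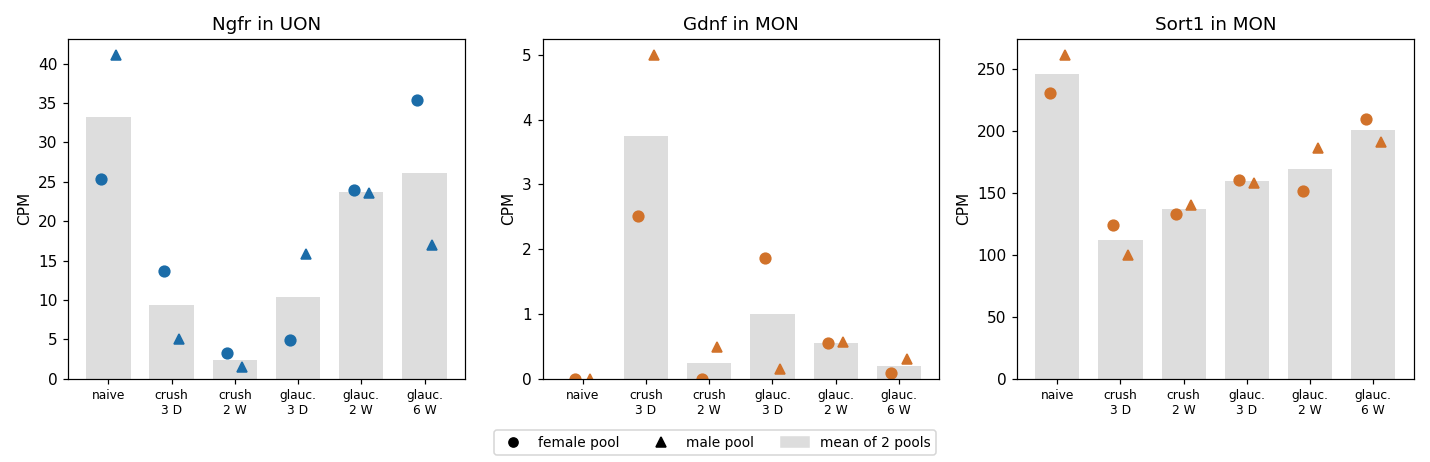
CPM of Ngfr in UON, and of Gdnf and Sort1 in MON, by condition; circles are female and triangles male pools, and grey bars are the means of 2 pools. Ngfr in UON is at 25.4 and 41.1 CPM in naïve mice and 3.25 and 1.47 at 2 W after crush, Gdnf in MON is at 0 in naïve mice and 2.51 and 5.0 at 3 D after crush, and Sort1 in MON is at 230.3 and 261 in naïve mice and 124 and 99.6 at 3 D.

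Sort1 in MON had 124 and 99.6 CPM at 3 D and 133 and 140.4 at 2 W after crush, below both naïve pools at 230.3 and 261. The log2 fold change was -1.05 at 3 D (standard error 0.286, edgeR adjusted p = 0.0904) and -0.81 at 2 W (edgeR adjusted p = 0.211), so neither was called. At 3 D it was past the limit with DESeq2 (adjusted p = 0.00789) and in the fit of all 36 libraries (edgeR adjusted p = 0.0229). It also passed without the sex term (edgeR adjusted p = 0.0422), while 2 of 5 alternative settings left it uncalled. Leaving out 1 library at a time gave log2 fold changes from -1.29 to -0.84. Oligodendrocyte markers, which had 122000 to 164000 CPM in naïve MON, summed to 72200 to 86400 at 3 D and 46700 to 59600 at 2 W, and their part was not tested. Ntrk2 in MON had 469.7 and 163 CPM at 3 D and 709.8 and 1151 at 2 W against 857 and 599.6 in naïve mice, with a log2 fold change of -1.18 at 3 D (edgeR adjusted p = 0.249, DESeq2 adjusted p = 0.0377). This change stayed uncalled in 4 of 5 alternative settings. With 1 library left out at a time, its log2 fold change ran from -2.14 to -0.51. The astrocyte marker sum was 6990 to 13600 CPM at 3 D against 12000 to 17400 in naïve MON, and its part in the Ntrk2 values was not tested. Ntrk3 and Gfra1 had log2 fold changes between -0.73 and 0.55 from naïve mice in both nerve regions after crush.

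In retina after crush 0.0221% of all genes were called at 3 D and 0.313% at 2 W, and no member was (0 of the 6 unadjusted p under 0.05 and 0 of the 3 DESeq2 calls lay in retina). Bdnf had 19.5 and 25.4 CPM at 3 D and 16.9 and 19.1 at 2 W, against 21.1 and 21.7 in naïve retina. Over both models the retinal log2 fold changes from naïve mice ran from -0.47 to 0.08 for Bdnf, from -0.12 to 0.01 for Ntrk2, from -0.33 to 0.19 for Ntrk3, from -0.35 to 0.25 for Ngfr, from -0.28 to 0.24 for Sort1 and from -0.29 to 0.25 for Gfra1. The lowest edgeR adjusted p among these 6 genes was 0.685, in Bdnf. The low genes had wider ranges in retina, with an Ntf3 log2 fold change of -1.63 to 2.52 (lowest edgeR adjusted p = 0.845) and a Gdnf one of 1.93 at 3 D and -1.86 at 2 W after crush (lowest edgeR adjusted p = 0.836). Neither gene was called, and Gdnf was under the low-count filter in the glaucoma comparisons of retina.

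**Figure D5:**
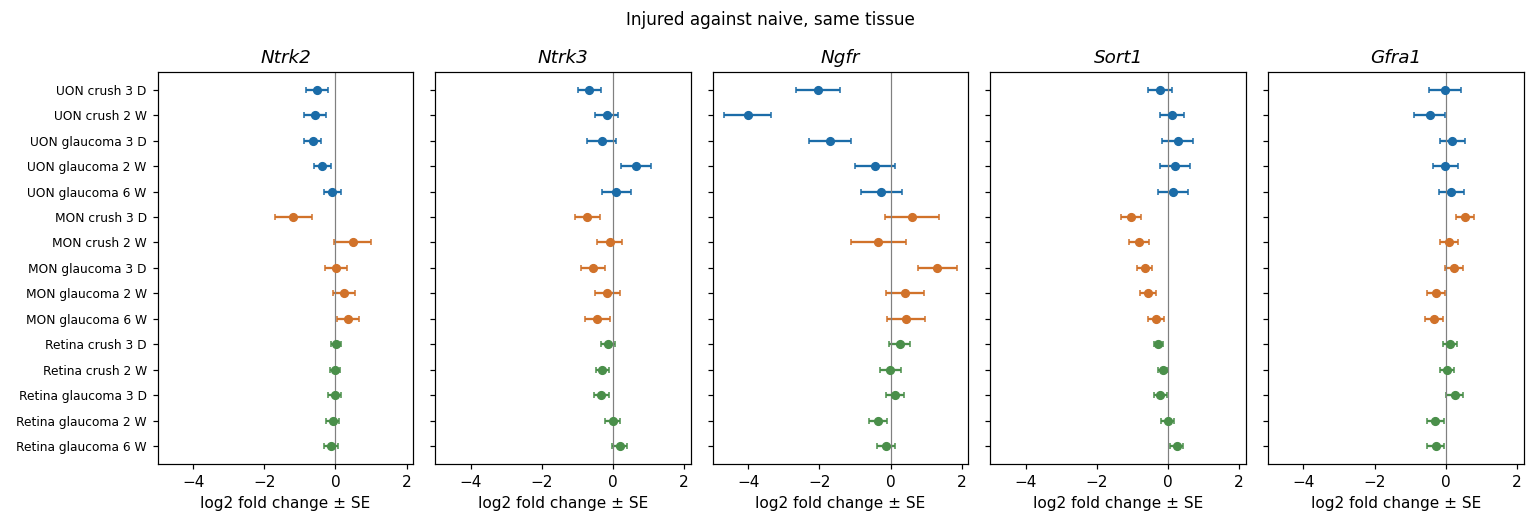
Log2 fold change from naïve mice, with its standard error, of the 5 receptor genes in each tissue, model and time. Retinal points lie between -0.35 and 0.25, Ngfr in UON reaches -4.02 at 2 W after crush, Sort1 in MON is below 0 in all 5 comparisons, and none of the points was called.

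In the glaucoma model no member was called in 63 tests against naïve mice, with 9 at an unadjusted p under 0.05 and 1 called by DESeq2. The test called 0% of all genes at 3 D, 2 W and 6 W in UON (868, 801 and 451 genes at an unadjusted p under 0.05), and 0% at all 3 times in MON (1854, 2017 and 1127 genes). In retina it called 0.00429% at 3 D, 0% at 2 W and 0.00858% at 6 W. Ngfr in UON had 4.92 and 15.8 CPM at 3 D, 23.9 and 23.6 at 2 W, and 35.3 and 16.9 at 6 W. Both 3 D pools were below the naïve 25.4 and 41.1 CPM (log2 fold change -1.71, edgeR adjusted p = 1), and at 6 W the groups overlapped. In MON, Ngfr had 2.34 and 5.63 CPM at 3 D, the second of which was its highest MON value, against 1.35 and 1.56 in naïve mice (log2 fold change 1.32, edgeR adjusted p = 0.606).

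Gdnf in MON had counts at every glaucoma time, with 1.86 and 0.146 CPM at 3 D, 0.546 and 0.565 at 2 W, and 0.0947 and 0.31 at 6 W, against 0 in both naïve pools. Pooled, it was 5.93-fold above the same floor at 3 D, 3.7-fold at 2 W and 1.41-fold at 6 W. These folds leave out counting error in the injured libraries, from 98, 36 and 20 counts. Gdnf was not called at any of these times (edgeR adjusted p = 0.5, 0.486 and 0.849). The 3 D fold came from the female pool (12.3-fold) and the 6 W fold from the male pool (2.05-fold). The other pool was below the floor of 0.151 CPM at each of these times. DESeq2 called it at 3 D (adjusted p = 0.0335). Sort1 in MON had 161 and 158 CPM at 3 D, 152 and 186 at 2 W, and 209.8 and 191 at 6 W, all below the naïve pools (log2 fold change -0.66, edgeR adjusted p = 0.507 at 3 D). Ntrk3 in UON had 35.6 and 96.9 CPM at 2 W, and the male pool was the highest Ntrk3 value of all 36 libraries. In the nerve in this model Ntrk2 and Gfra1 had log2 fold changes between -0.64 and 0.36 from naïve mice, and Bdnf, at 0 to 1.32 CPM, had no edgeR adjusted p under 0.558.

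Whether UON and MON responded differently was tested as the change from naïve mice in UON minus that in MON. No member was called in 38 tests, while 7 had an unadjusted p under 0.05 and DESeq2 called 3. The share of all genes called was 0.012% for crush at 3 D and 0% for crush at 2 W (2728 genes at an unadjusted p under 0.05), and 0% for glaucoma at 3 D, 2 W and 6 W (1511, 1595 and 799 genes). The difference for Ngfr was -2.48 at 3 D (standard error 0.898, edgeR adjusted p = 0.596) and -3.51 at 2 W (standard error 0.913, edgeR adjusted p = 0.216) after crush, and -3.11 at 3 D of glaucoma (standard error 0.737, edgeR adjusted p = 0.791). DESeq2 gave adjusted p-values of 0.0116 for crush at 2 W and 0.0351 for glaucoma at 3 D. Gdnf at 3 D after crush was the other difference that DESeq2 called (adjusted p = 0.00502, edgeR adjusted p = 0.49), in a gene at 0 in naïve MON.

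At the same time after injury, crush and glaucoma were compared directly, in fits that hold the naïve libraries only for the estimate of spread. No member was called in 44 tests, with 2 at an unadjusted p under 0.05 and 1 called by DESeq2. Of all genes, 0% were called in UON at 3 D (255 at an unadjusted p under 0.05) and 0.0418% at 2 W, 0.0162% in MON at 3 D and 0.0485% at 2 W, and 0.0081% in retina at 3 D and 0.113% at 2 W. Ngfr in UON at 2 W had 3.25 and 1.47 CPM after crush and 23.9 and 23.6 in glaucoma, without overlap (log2 fold change -3.37, standard error 0.726, edgeR adjusted p = 0.295, DESeq2 adjusted p = 0.000192). Ntrk2 in MON at 3 D had 469.7 and 163 CPM after crush and 569.9 and 971 in glaucoma (log2 fold change -1.25, edgeR adjusted p = 0.42).

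A list of 50 other genes of these pathways, of which 45 were tested between naïve tissues, gave 7 called higher in UON than MON and 6 called lower. This comparison called 9.63% of all genes tested. The median log2 fold change of the listed genes was 0.356 against -0.0616 over all genes. The higher ones were Gfra2, the neurturin receptor, Sorcs1 and Sorcs2 of the sortilin family, Lingo1, Shc1, an adaptor of Trk receptors, Maged1, a binding partner of p75, and Plat, tissue plasminogen activator. Sorcs2 stood out with a difference of 2.32 on the log2 scale (edgeR adjusted p = 0.00195). The lower ones were Sorcs3 (-3.90, edgeR adjusted p = 0.00437), the adaptors Gab2, Sos1 and Sh2b2, and the protein convertases Pcsk2 and Pcsk6 (Pcsk6 -3.44, edgeR adjusted p = 0.00206). Sortilin family genes thus fell on both sides, with Sorcs1 and Sorcs2 higher in UON and Sorcs3 and Sort1 higher in MON. Against retina 18 were called higher and 8 lower in UON, where 31.7% of all genes tested were called. In MON 14 were called higher and 7 lower, where 27.6% of all genes tested were called.

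After crush, 3 of the 41 pathway genes tested in MON were called at 3 D, where 4.26% of all genes were, and 1 at 2 W, where 2.72% were. Of these, 2 genes at 3 D are described here. Mmp9, a metalloprotease that can cleave neurotrophin precursors, went from 0.0955 and 0 CPM in naïve MON to 9.87 and 12.8 (edgeR adjusted p = 0.021). Plcg1, a phospholipase that Trk receptors activate, fell from 74.0 and 68.7 CPM to 22.7 and 21.9 at 3 D (edgeR adjusted p = 0.0334) and had 46.1 and 75.1 at 2 W. edgeR called none of the listed genes in UON or retina after crush (10 of 84 and 16 of 90 tests at an unadjusted p under 0.05), in UON, MON or retina of the glaucoma model (8 of 129, 19 of 132 and 9 of 135), in the response differences (33 of 223) or between the models (33 of 270). Microglia and macrophage markers in MON summed to 876 to 906 CPM in naïve mice and 1880 to 2400 at 3 D after crush, and their part in these changes was not tested.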

How the data were processed

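RNA of retina, UON and MON was measured in 36 bulk libraries from pools of 2 mice of 1 sex, prepared with an ultra-low input kit. Per the labels and the study's methods, the authors aligned the paired reads to GRCm38 with HISAT2 2.2.1 and assembled them with StringTie 1.3.0 on the Gencode M25 annotation. The count tables the authors deposited hold estimated counts of genes and transcripts, computed from coverage and transcript length and not scaled for depth. FPKM, as deposited, are StringTie's values per kilobase, scaled to mapped fragments. TPM, also deposited, served as an alternative. In some libraries a few FPKM and TPM scores as deposited by the authors, 40 values in all, were slightly negative and taken as 0. Strand was not given in the sources used here. Genes with 1 transcript gave 75.0 bases per count, so a pair of 150 base reads adds about 4 counts.

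The 8 members, the lists of pathway and marker genes and the tests were chosen with earlier results of these data known. Groups were read from the sample titles. Counts were normalized by TMM and tested with edgeR 4.0.16 (R 4.3.3), after filterByExpr (minimum count 10, minimum total 15), by the quasi-likelihood F test with sex as a term and Benjamini-Hochberg adjustment over all genes tested. Calls needed an adjusted p below 0.05 and a log2 change outside -1 to 1. The fits held 6 libraries (naïve tissues; crush), 8 (glaucoma), 12 to 16 (response, with the interaction of tissue and group; crush against glaucoma) or 36. The study's model, DESeq2 (1.42.0) with sex, was an alternative, beside RLE normalization, no filter, no fold limit, all 36 libraries in 1 fit, no sex term and leaving out each library in turn. The scripts were tested on simulated data. A fold against a group at 0 used a floor of 12 counts, or 3 pairs of reads, over the group.

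Receptor forms were taken by transcript ID: complete coding transcripts of Ntrk2 and Ntrk3 that encode the kinase, and those with the same start codon that stop elsewhere. Gene models and sequences came from Gencode M21 on the same build, and promoter windows from RefSeq on GRCm38.p6. Shares within mouse pools were compared by an exact sign-flip permutation test. Named genes were the members, pathway genes called in a comparison described, and for each member the 2 genes with the highest Pearson correlation of log2 CPM (prior count 2). Genes of the cell type lists were named as markers only, and a few genes that these rules name are not reported here. Of 50 listed pathway genes, Ngfrap1 was not found by that symbol. Replicate libraries differed beyond sampling noise, with a chi-square per gene of 11.2 to 132.3. Sex deviations of the same pools in different tissues correlated at -0.05 to 0.22 (median 0.03), and the tissues are paired because the same mice gave them. Figures were drawn with matplotlib 3.10.9.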

Additional observations from a re-analysis of the deposited data

How the results depend on the processing

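Of 26 called member changes, 24 were called under every alternative other than leaving out a library, and of the 13 for which libraries were left out in turn, 11 kept their call. The exceptions were Ntrk3 between naïve UON and MON and Gdnf in MON at 3 D after crush, with the values given above. The count of members called after crush, 1, was 3 with DESeq2 and 2 without the filter on low counts, with all 36 libraries in 1 fit and without the sex term. In glaucoma 0 became 1 with DESeq2. For the response of UON against MON, 0 became 3 with DESeq2 and 2 without the filter. Between crush and glaucoma, 0 became 1 with DESeq2, without the filter and with all 36 libraries. Counts over all genes moved by far more than 1.5 times: against naïve mice the comparisons called 0 to 852 genes with edgeR, 31 to 2368 with DESeq2, 0 to 2110 without the filter and 0 to 1329 with all 36 libraries. With each library left out, the count was 0 to 4 after crush (3 and 4 without the male and the female MON pool at 2 W, 2 without the female MON pool at 3 D, 0 without the male one or either naïve MON pool), 11 to 13 between naïve tissues, 0 in glaucoma, 0 between the models, and 0 to 1 for the response, where Ngfr at 2 W after crush had an adjusted p of 0.0196 without the female UON pool. The log2 fold change of Bdnf in naïve UON over MON, 3.03, ran up to 5.89 with a library left out and turned to -3.98 without the female naïve UON pool (adjusted p = 0.322), since the male one was at 0. Where this left an arm with 1 library, that library was assumed to vary like the others. The fit over all conditions was not run with libraries left out. With the mouse pool as a replicate block, the response comparisons still called 0 members and the comparisons over all conditions 13.

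The Ntrk2 kinase share of UON minus MON was -1.8 points by transcript length (adjusted p = 0.058 in the exact test). With each pool left out, it ran from -2.9 to -1.6 points, UON minus retina from -47.4 to -44.5 and MON minus retina from -45.3 to -42.4. For Ntrk3 these were -6.5 to -1.8, -51.2 to -47.9 and -46.3 to -42.4 points. With TPM in place of FPKM, the naïve log2 ratio of Ntrk2 in UON to retina moved from 3.94 to 4.03, Ntrk3 in UON to MON from 1.13 to 1.25, Sort1 in UON to MON from -1.42 to -1.30 and Sort1 in UON to retina from -0.11 to -0.02. Leaving out libraries for the pooled ratios of Bdnf, Ntf3 and Gdnf was chosen after seeing the data, with the values given above. Depth limits Ntf3, Gdnf and nerve Bdnf, which rest on few pairs of reads per library.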

Other observations

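Some genes followed the members closely from library to library. Over all 36 libraries, where the 3 tissues alone spread the points, log2 CPM of Ntrk2 was most like that of the fatty acid desaturase genes Fads2 (Pearson r = 0.994) and Fads1 (0.992) among 30096 genes searched. Bdnf was most like the photoreceptor genes Tulp1 (0.942) and Samd7 (0.941), Sort1 like Dennd5a (0.946) and Hipk2 (0.945), and Gfra1 like Mlec (0.95) and Serinc5 (0.947). Ngfr was most like Fyco1 (0.835), and Ntrk3 like Zfp503 (0.870). The low genes had weaker partners, Tpsg1 (0.776) and Gm41192 (0.763) for Ntf3 and Lrrc70 (0.682) and Thumpd3 (0.675) for Gdnf.

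With the tissue mean taken out, Ntrk2 stayed close to Cpe (r = 0.931) and Ttyh1 (0.927) over the 36 deviations. Sort1 was then most like Pura (0.855) and Adgrb1 (0.842), Ngfr like Ipo9 (0.826) and Ifrd2 (0.808), Gfra1 like Vat1l (0.716) and Pcdhgc4 (0.683), and Ntrk3 like Gm8446 (0.695) and Gtf2i (0.693). For the ligands the nearest were Apobr (0.719) and Ccn5 (0.672) for Bdnf, Enpp6 (0.660) and Pdk4 (0.583) for Ntf3, and Nop58 (0.687) and Fam136a (0.682) for Gdnf. These correlations describe 36 libraries that share tissues, mice and depth, and no test was made on them.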
